A study of Mus musculus with 4 samples.

Results

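Calmodulin regulators and calmodulin-dependent kinases were examined in olfactory bulbs of mice that had lost the transcription factors Sp8 and Sp9 in the interneuron lineage. The group holds 9 of the 20032 genes in the deposited table. They include Pcp4, Pcp4l1 and Nrgn, which encode small IQ-motif proteins. The others are the 4 genes of calcium/calmodulin-dependent protein kinase II (Camk2a, Camk2b, Camk2d and Camk2g), the kinase gene Camk4 and the kinase kinase gene Camkk2. The genes were taken by symbol and chosen on their function and on earlier results of the same comparison of mutant with control FPKM (fragments normalised to transcript length and library size). Their differences between genotypes are therefore given as a description, with no p-value, and the calls that the fit across the table made for them are counted without being read as evidence. No threshold entered the choice, and all 9 genes averaged 1 FPKM or more across libraries, the level needed to enter the fit across the table.

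RNA sequencing was applied to whole bulbs at postnatal day 11, with 2 libraries per genotype. The mutants, called DCKO, were homozygous for floxed Sp8 and floxed Sp9 (Sp8 Flox/Flox and Sp9 Flox/Flox) and carried Dlx5/6-CIE, a transgene that expresses Cre recombinase from a Dlx5/6 enhancer active in GABAergic forebrain precursors. The controls were littermates without Cre, and both groups shared a mixed background of C57BL/6J, 129S6 and CD1. The labels do not say whether libraries of a genotype came from separate animals, so errors and p-values cover only the spread between these samples, which may be technical.

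Calmodulin is the main intracellular calcium sensor of neurons. Calcium-bound calmodulin switches on protein kinases and the phosphatase calcineurin, while small proteins with an IQ motif, such as those encoded by Pcp4 and Nrgn, bind calmodulin and set how much of it is free and how fast it exchanges calcium. In the rodent bulb, neurogranin, CaMKII alpha and CaMKIV have each been described in granule cells, the GABAergic neurons that form reciprocal dendrodendritic synapses with mitral and tufted cells.

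The promoters of Pcp4, Pcp4l1 and Nrgn are shown because these genes differed most among the 9 between genotypes. The sequences are those of RefSeq on GRCm38.p6, which held 6 of the 9 genes, and run 5′ to 3′ on the gene's strand over 300 bases, with 250 bases before the annotated start and 50 bases after it. They lie at chr16:96467356-96467655 on the plus strand for Pcp4, at chr1:171196219-171196518 on the minus strand for Pcp4l1 and at chr9:37552696-37552995 on the minus strand for Nrgn. Capitals mark matches to GGGCGG, the GC box of Sp family factors, to TGACG or TGACGTCA, the short and full forms of the cAMP response element bound by CREB, or to TATAAA, each searched on both strands; TGACG lies within TGACGTCA.
Pcp4: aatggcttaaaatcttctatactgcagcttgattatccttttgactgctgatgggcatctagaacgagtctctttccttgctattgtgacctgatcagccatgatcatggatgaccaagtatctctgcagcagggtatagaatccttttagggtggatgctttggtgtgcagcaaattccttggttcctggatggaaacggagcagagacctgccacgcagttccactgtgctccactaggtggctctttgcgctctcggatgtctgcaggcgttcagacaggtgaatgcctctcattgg
Pcp4l1: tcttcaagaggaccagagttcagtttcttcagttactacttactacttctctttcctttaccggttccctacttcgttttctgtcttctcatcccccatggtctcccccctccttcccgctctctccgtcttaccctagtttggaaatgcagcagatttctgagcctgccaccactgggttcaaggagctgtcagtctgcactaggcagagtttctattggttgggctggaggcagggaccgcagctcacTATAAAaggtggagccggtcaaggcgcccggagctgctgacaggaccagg
Nrgn: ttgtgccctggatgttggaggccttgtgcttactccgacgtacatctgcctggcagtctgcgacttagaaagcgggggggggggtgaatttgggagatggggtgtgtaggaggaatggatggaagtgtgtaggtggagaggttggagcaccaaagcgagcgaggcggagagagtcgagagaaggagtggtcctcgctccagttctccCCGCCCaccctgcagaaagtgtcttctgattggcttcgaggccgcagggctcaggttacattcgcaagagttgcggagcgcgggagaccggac
The Pcp4 window held none of these letters. The Pcp4l1 window held 1 TATAAA, beginning at the annotated start, and the Nrgn window held 1 GC box, on the reverse strand with its first base at position -43 from the start. Of 32817 RefSeq promoter windows of the same length, 35.6% held GGGCGG, 20.8% TGACG, 1.79% TGACGTCA and 13.6% TATAAA. The share of G and C was 48.7% for Pcp4, 53.3% for Pcp4l1 and 59.3% for Nrgn, against a median of 52.7% over all windows. The windows of Camk2b (77.3%), Camkk2 (73.3%) and Camk2d (70.3%) were richer in G and C, with 3 GC boxes for Camk2b, 3 for Camk2d and 1 for Camkk2. The GENCODE M21 annotation places the upstream end of Nrgn at 37552904, so its GC box lies inside that gene span. The windows of Camk2b and Camk2d lie wholly inside the GENCODE spans of their genes. These matches describe the letters alone.

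The targeted genes followed their labels. Sp8 was at 1.68 and 2.03 FPKM in the DCKO libraries, against 32.0 and 26.7 FPKM in the control libraries, and Sp9 was at 0.0674 and 0.236 FPKM in the DCKO libraries, against 24.0 and 30.7 FPKM in the control libraries (log2 change -3.41 ± 0.12 for Sp8 and -4.62 ± 0.15 for Sp9, SE; limma with Benjamini-Hochberg adjusted p = 0.000744 and 0.000709). The authors' scaled counts summed to 14899179 and 14632502 in the DCKO libraries and to 15033308 and 15400982 in the control libraries. One library stood apart in most listed genes of olfactory sensory neurons, whose axons reach the bulb. Omp was at 31.5 and 20.3 FPKM in the DCKO libraries, against 98.4 FPKM in control 1 and 20.1 FPKM in control 2, and the transduction channel gene Cnga2 was at 0.206 and 0.212 FPKM in the DCKO libraries, against 10.2 FPKM in control 1 and 0.303 FPKM in control 2. Values without control 1 are therefore given beside those of the 9 genes. The listed gene Gng13 did not set control 1 apart, at 146 and 119 FPKM in the DCKO libraries, 144 FPKM in control 1 and 68.0 FPKM in control 2.

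The 9 genes were lower in DCKO bulbs as a group, to very unequal degrees. Summed over the 9 genes, the level was 307 and 280.2 FPKM in the DCKO libraries, against 1133 and 1227 FPKM in the control libraries. For every one of the 9, both DCKO libraries lay below both control libraries, a pattern that 37.6% of the 13434 genes in the fit showed. In the fit, 8 of the 9 (all but Camkk2) passed the threshold as lower in DCKO, beside 14.3% of all genes, and 0 as higher, beside 13.0% of all genes; since the genes were chosen on this comparison, nothing is read from these counts. The median log2 change, here and below the DCKO minus control difference in log2(FPKM + 1), was -1.77 for the 9 genes and -0.0157 for all 13434 genes. This scale understates changes of genes with low levels. In RNA of whole bulbs, fewer cells of a type and less RNA per cell cannot be told apart. FPKM is relative to the rest of its library, so a gene that rose, here and below, need not have more RNA or more cells.

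**Figure D1:**
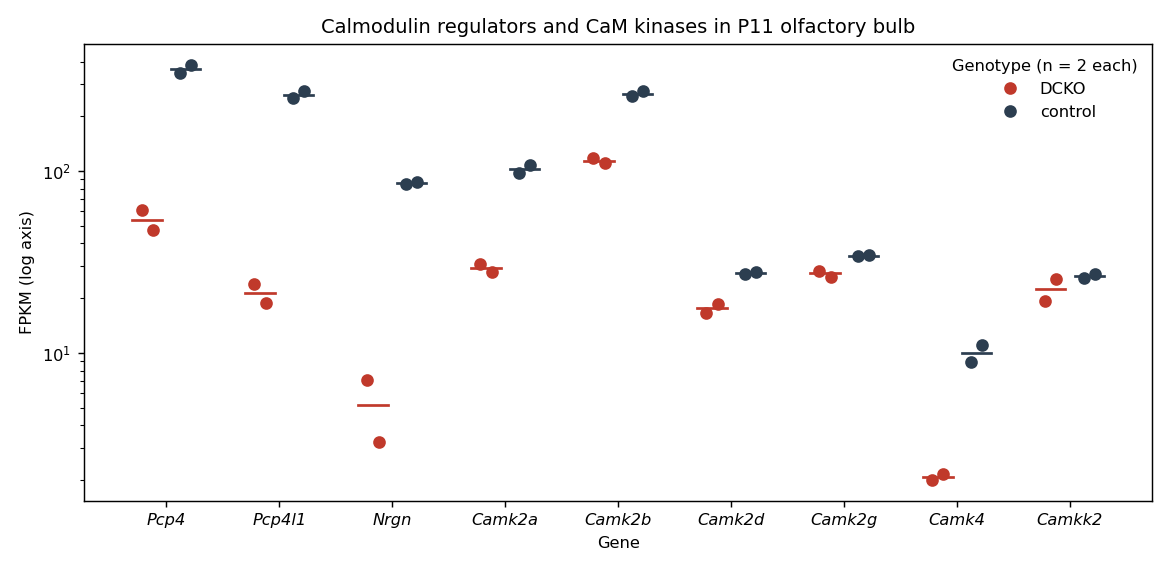
FPKM of the 9 genes (log axis) in each library, with DCKO in red to the left and control in dark blue to the right within each gene, n = 2 each; points are libraries and bars are means. The distance between genotypes is widest for Nrgn, Pcp4l1 and Pcp4 and narrowest for Camk2g and Camkk2.

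Nrgn had the largest difference of the group. It encodes neurogranin, a postsynaptic protein that holds calcium-free calmodulin and releases it when calcium rises or when protein kinase C phosphorylates it. Nrgn was at 7.11 and 3.25 FPKM in the DCKO libraries, against 84.6 and 87.4 FPKM in the control libraries. Both control libraries were close to each other, while DCKO 1 was 2.19 times DCKO 2, and the groups did not overlap. The mean was 5.18 ± 2.73 FPKM in DCKO and 86.0 ± 2.0 FPKM in control (SD, n = 2 each), 16.6-fold lower in DCKO, with a log2 change of -3.89 ± 0.30 (SE), the 12th lowest of the 13434 genes. The log2 change was -4.36 without DCKO 1 and -3.42 without DCKO 2, and -3.91 without control 1. The authors' scaled counts behind these levels were 155 and 69.9 in the DCKO libraries, the fewest of the 9 genes, against 1786 and 1821 in the control libraries.

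Pcp4l1 and Pcp4 are paralogs that encode short IQ-motif proteins, and the Pcp4 product is known to speed the binding and release of calcium by calmodulin. Pcp4l1 was at 23.9 and 18.9 FPKM in the DCKO libraries, against 250.8 and 274 FPKM in the control libraries, and Pcp4 was at 61.0 and 47.2 FPKM in the DCKO libraries, against 348 and 384 FPKM in the control libraries. For both genes DCKO 2 was the lowest library, and the groups were far apart. Pcp4l1 averaged 21.4 ± 3.54 FPKM in DCKO and 262 ± 16.4 FPKM in control (SD, n = 2 each), 12.2-fold lower, with a log2 change of -3.56 ± 0.13 (SE), the 21st lowest of all. Pcp4 averaged 54.1 ± 9.75 FPKM in DCKO and 366 ± 25.6 FPKM in control (SD, n = 2 each), 6.76-fold lower, with a log2 change of -2.74 ± 0.14 (SE), the 52nd lowest. Without control 1 the log2 changes were -3.63 for Pcp4l1 and -2.82 for Pcp4.

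In control bulbs these genes were among the most abundant in the table. Ordered by FPKM, Pcp4 stood at place 96 in control 1 and 83 in control 2, where Pcp4l1 stood at 177 and 158 and Nrgn at 676 and 659. In the DCKO libraries the places were 985 and 1359 for Pcp4, 2943 and 3867 for Pcp4l1 and 8058 and 10954 for Nrgn. The 3 genes made up 30.0% and 24.8% of the summed FPKM of the 9 in the DCKO libraries, against 60.3% and 60.7% in the control libraries. By GENCODE M21 on GRCm38, Pcp4 spans chr16:96467606-96525793 on the plus strand and overlaps Igsf5 on the same strand, which was at 0.274 and 0.273 FPKM in the DCKO libraries, against 0.433 and 0.149 FPKM in the control libraries, too low to enter the fit. Pcp4l1 spans chr1:171173262-171196268 and Nrgn chr9:37544492-37552904, both on the minus strand.

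The CaMKII genes differed in the order Camk2a, Camk2b, Camk2d, Camk2g. Camk2a and Camk2b encode the alpha and beta subunits, which make up most of the holoenzyme in neurons and act at the postsynaptic density, where the beta subunit also binds actin. Camk2a was at 30.7 and 28.0 FPKM in the DCKO libraries, against 97.0 and 108 FPKM in the control libraries. Camk2b was at 118 and 110.2 FPKM in the DCKO libraries, against 257 and 274 FPKM in the control libraries. Libraries of a genotype lay within 1.11-fold of each other for Camk2a and within 1.07-fold for Camk2b, and the genotypes did not overlap. Camk2a averaged 29.3 ± 1.92 FPKM in DCKO and 102 ± 7.48 FPKM in control (SD, n = 2 each), 3.49-fold lower, with a log2 change of -1.77 ± 0.09 (SE). Camk2b averaged 114 ± 5.54 FPKM in DCKO and 265 ± 11.9 FPKM in control (SD, n = 2 each), 2.33-fold lower, with a log2 change of -1.21 ± 0.08 (SE).

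Camk2d and Camk2g encode the delta and gamma subunits, which are found in many tissues besides brain. Camk2d was at 16.7 and 18.5 FPKM in the DCKO libraries, against 27.1 and 28.0 FPKM in the control libraries, and Camk2g was at 28.4 and 26.3 FPKM in the DCKO libraries, against 34.2 and 34.4 FPKM in the control libraries. Both genes were lower in both DCKO libraries than in either control, by a smaller margin than Camk2a and Camk2b. Camk2d averaged 17.6 ± 1.32 FPKM in DCKO and 27.5 ± 0.633 FPKM in control (SD, n = 2 each), 1.56-fold lower, with a log2 change of -0.62 ± 0.08 (SE). Camk2g averaged 27.3 ± 1.47 FPKM in DCKO and 34.3 ± 0.166 FPKM in control (SD, n = 2 each), 1.25-fold lower, with a log2 change of -0.32 ± 0.07 (SE). Without control 1 the log2 changes were -1.84 for Camk2a, -1.26 for Camk2b, -0.64 for Camk2d and -0.32 for Camk2g. Camk2g did not pass the threshold without control 1 or without control 2, which left 7 of the 9 genes past it, nor without DCKO 2, where Camkk2 passed and 8 did.

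Because FPKM is per length, levels can be set side by side between the 4 CaMKII genes. Their summed level was 194 and 183 FPKM in the DCKO libraries, against 415 and 444 FPKM in the control libraries, 2.28-fold lower in DCKO. Camk2a made up 15.8% and 15.3% of the sum in the DCKO libraries, against 23.4% and 24.2% in the control libraries, and Camk2b 60.9% and 60.2% in the DCKO libraries, against 61.9% and 61.7% in the control libraries. Camk2d made up 8.60% and 10.1% in the DCKO libraries, against 6.52% and 6.30% in the control libraries, and Camk2g 14.6% and 14.4% in the DCKO libraries, against 8.23% and 7.76% in the control libraries. The mean share, DCKO minus control, thus differed by -8.24 percentage points for Camk2a, 6.52 points for Camk2g and 2.95 points for Camk2d, each without overlap between genotypes. For Camk2b it differed by -1.23 points on FPKM, but by 0.307 points on the scaled counts, which are not per length. The FPKM ratio of Camk2b to Camk2a was 3.85 and 3.94 in the DCKO libraries, against 2.65 and 2.55 in the control libraries.

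**Figure D2:**
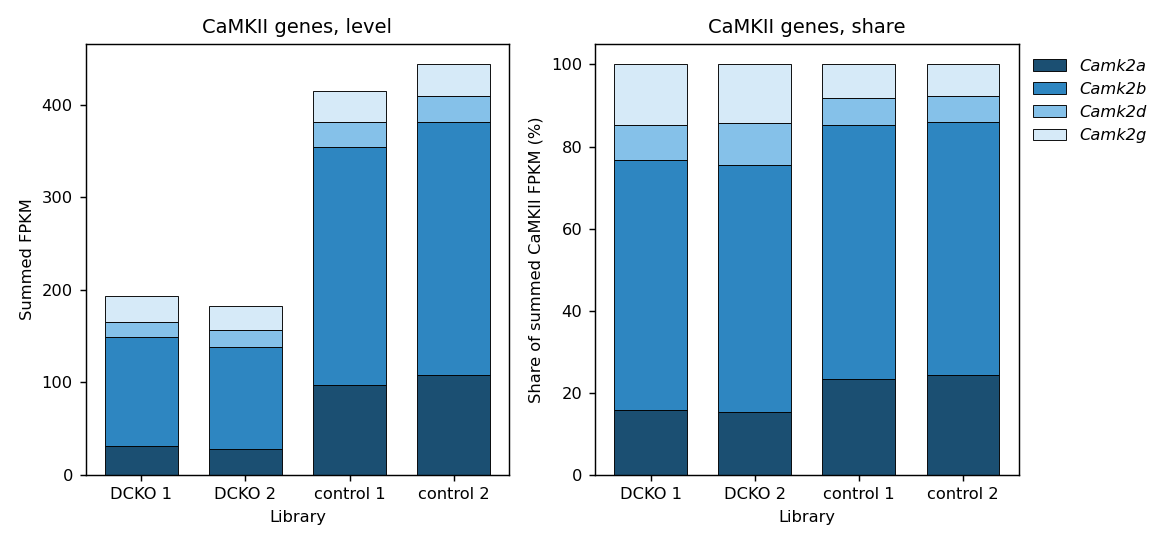
Summed FPKM of the 4 CaMKII genes (left) and the share of each gene in that sum in percent (right), stacked per library, with DCKO 1 and 2 to the left of control 1 and 2. The sum is lower in both DCKO libraries, the Camk2a share is smaller and the Camk2g and Camk2d shares are larger, while Camk2b stays near 60% to 62%.

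Camk4 encodes CaMKIV, a mostly nuclear kinase that phosphorylates CREB. It was at 2.0 and 2.15 FPKM in the DCKO libraries, against 8.88 and 11.0 FPKM in the control libraries. It had the lowest level of the 9 genes in both genotypes, and the groups did not overlap. It averaged 2.07 ± 0.103 FPKM in DCKO and 9.95 ± 1.51 FPKM in control (SD, n = 2 each), 4.80-fold lower, with a log2 change of -1.83 ± 0.13 (SE). The log2 change was -1.97 without control 1 and -1.08 with a pseudocount of 5 FPKM, and on the library-normalised scaled counts, where its scaled counts were 662 and 680.0 in the DCKO libraries against 2852 and 3760.0 in the control libraries, it was -2.22.

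Camkk2 encodes a kinase kinase that phosphorylates and activates CaMKI, CaMKIV and AMP-activated protein kinase. It was at 19.4 and 25.6 FPKM in the DCKO libraries, against 25.8 and 27.2 FPKM in the control libraries. DCKO 2 lay just below control 1, and the difference rested on DCKO 1. Camkk2 averaged 22.5 ± 4.44 FPKM in DCKO and 26.5 ± 0.979 FPKM in control (SD, n = 2 each), 1.18-fold lower, with a log2 change of -0.24 ± 0.14 (SE). Without DCKO 1 the log2 change was -0.05, without DCKO 2 it was -0.43, and without control 1 it was -0.28.

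By GENCODE M21 on GRCm38, Camk2a lies on chromosome 18 from 60925618 to 60988152 and Camk4 on chromosome 18 from 32934931 to 33191228, both on the plus strand. Camk4 overlaps the antisense gene 2310026I22Rik, and Camk2d, at chr3:126596302-126846326 on the plus strand, overlaps the antisense gene Gm15551. The strand setting of the authors' counting is not given in the sources used here, so reads of these genes and of their antisense partners cannot be told apart. Camk2b spans chr11:5969644-6066362, Camk2g chr14:20734875-20794088 and Camkk2 chr5:122731170-122779409, all on the minus strand.

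The order of FPKM levels differed between genotypes. In DCKO bulbs it ran from Camk2b through Pcp4, Camk2a, Camk2g, Camkk2, Pcp4l1, Camk2d and Nrgn to Camk4. In control bulbs it ran from Pcp4 through Camk2b, Pcp4l1, Camk2a, Nrgn, Camk2g, Camk2d and Camkk2 to Camk4. The ranges of the libraries overlapped between Camk2a and Camk2g and between Camkk2 and Pcp4l1 in DCKO, and between Camk2b and Pcp4l1 and between Camk2d and Camkk2 in control. Within single libraries, Camk2a was above Camk2g in both DCKO libraries and Camk2d was above Camkk2 in both control libraries. The order of Camkk2 and Pcp4l1 differed between the DCKO libraries, and that of Camk2b and Pcp4l1 between the control libraries.

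Profiles over the 4 libraries were compared by the Euclidean distance between log2(FPKM + 1) values, each gene centred on its own mean, so that 0 is an identical profile. The 3 genes nearest to Pcp4 were Fam163b (0.295), Rbfox3 (0.301) and Tuba8 (0.306), and Rbfox3, which encodes the neuronal nuclear antigen NeuN, was at 5.07 and 5.03 FPKM in the DCKO libraries, against 32.6 and 38.4 FPKM in the control libraries. Nearest to Nrgn was Trh (0.172), the precursor of thyrotropin-releasing hormone, which was also higher in DCKO 1 than in DCKO 2, at 1.60 and 0.521 FPKM in the DCKO libraries against 29.9 and 32.3 FPKM in the control libraries. Adra1d (0.623) and Kcnh3 (0.642) followed at a larger distance. Nearest to Camk4 were Kcnab3 (0.070), Cpne6 (0.10) and Hs6st2 (0.103), and nearest to Camk2a were Cpne6 (0.107), Kank3 (0.109) and Crhbp (0.110). Cpne6, which encodes the calcium-binding protein copine 6, was thus close to both kinase genes, at 33.6 and 33.6 FPKM in the DCKO libraries against 115 and 128 FPKM in the control libraries. With 4 libraries in 2 groups, such distances depend on the size of the genotype difference and on the spread within genotypes.

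The wider calmodulin pathway was read from 8 lists with 79 genes, of which 74 passed the filter and entered the fit. The lists were chosen with earlier results of these data known. Their counts, shares and p-values, here and in the paragraphs below, are therefore a description and not independent evidence. Of these, 33 fell in DCKO (44.6%, beside 14.3% of all genes), 8 rose (10.8%, beside 13.0% of all genes) and 33 did not pass, at a limma Benjamini-Hochberg adjusted p below 0.05. The median log2 change was -0.30 for the 74 genes and -0.0157 for all genes. Leaving out each library in turn kept 17 of the 33 lower and 2 of the 8 higher calls; the count of lower genes was 19 without control 2, and the count of higher genes was 3 without control 1, 4 without control 2, 5 without DCKO 1 and 4 without DCKO 2. No gene called changed direction under any alternative.

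Calmodulin itself is encoded by several genes whose products are the same protein, among them Calm2 and Calm3. Of the 3 genes of this list in the fit, 1 fell and 0 rose, with a median log2 change of -0.18. Calm2 fell, at 418 and 430.1 FPKM in the DCKO libraries against 701 and 683 FPKM in the control libraries (log2 change -0.71 ± 0.07, SE; limma adjusted p = 0.00589). Calm3 was at 441 and 428 FPKM in the DCKO libraries, against 487 and 501 FPKM in the control libraries, with a log2 change of -0.18 (limma adjusted p = 0.119, and 0.0423 after quantile normalization). In both genotypes Calm2 and Calm3 were each at a higher FPKM than any of the 9 genes. Reads shared between calmodulin genes could have been split in counting. Calml4 was below the filter and Calml3 was listed at 0 in all 4 libraries.

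Of 14 other calmodulin-binding proteins, 3 fell and 2 rose, with a median log2 change of -0.00. Iqsec2, an exchange factor for Arf6 at synapses, fell (-1.27 ± 0.09; limma adjusted p = 0.00224), while its paralog Iqsec1 rose (0.68 ± 0.06; limma adjusted p = 0.00463). Gap43, a growth cone protein with an IQ motif related to that of neurogranin, rose by 0.64 ± 0.12 on the log2 scale (limma adjusted p = 0.0207), with 231 and 279 FPKM in the DCKO libraries against 154 and 171 FPKM in the control libraries. The Gap43 call was lost without control 1 (limma adjusted p = 0.0638) and with no filter on low values (0.0506). The striatin Strn4 fell by 0.47 on the log2 scale (limma adjusted p = 0.0176), a call lost without control 2 (0.0785). Marcksl1, which had the highest mean of the list over the 4 libraries, had a log2 change of -0.31 (limma adjusted p = 0.122, and 0.0400 without DCKO 2).

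Of 7 other CaM kinases and related genes, 5 fell and 0 rose, with a median log2 change of -0.55; without each library in turn, 3 kept the call. The CaMKI gene Camk1g fell most, at 3.46 and 4.77 FPKM in the DCKO libraries against 10.6 and 13.8 FPKM in the control libraries (-1.37 ± 0.18, SE; limma adjusted p = 0.00946). Camkv, which encodes a vesicle-associated, kinase-like protein, was at 42.4 and 47.6 FPKM in the DCKO libraries, against 89.8 and 92.5 FPKM in the control libraries (-1.0 ± 0.08, SE; limma adjusted p = 0.00303). Pnck, the beta form of CaMKI, fell by 0.55 on the log2 scale (limma adjusted p = 0.00826). Camkk1, the paralog of Camkk2, fell by 0.56 on the log2 scale (limma adjusted p = 0.0302). Its call was lost without control 2 (log2 change -0.47) and without DCKO 2 (-0.44). It was also lost with no filter on low values (limma adjusted p = 0.0647) and with the replicate number as a block (0.0506).

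The genes that hold CaMKII in check or in place did not share a direction: 2 of 5 fell, 2 rose and 1 did not pass. Camk2n1 and Camk2n2 encode inhibitor proteins of CaMKII and were higher in DCKO. Camk2n1 was at 45.9 and 55.4 FPKM in the DCKO libraries, against 28.9 and 33.8 FPKM in the control libraries (0.67 ± 0.12, SE; limma adjusted p = 0.0208, and 0.0525 without DCKO 2). Camk2n2 was at 67.4 and 63.6 FPKM in the DCKO libraries, against 48.1 and 53.4 FPKM in the control libraries (0.36 ± 0.08, SE, limma adjusted p = 0.0321). Its call was lost whichever of the 4 libraries was left out. It was also lost with no filter on low values (limma adjusted p = 0.0556), no intensity trend (0.0502) and the replicate number as a block (0.0595). The CaMKII phosphatase gene Ppm1e fell (-1.09 ± 0.11; limma adjusted p = 0.00478), while its paralog Ppm1f had a log2 change of 0.04 (limma adjusted p = 0.731) that turned to -0.01 without DCKO 1. Lrrc7, which encodes the postsynaptic anchor densin, fell (-1.24 ± 0.12; limma adjusted p = 0.00441).

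Of 6 synaptic substrates of CaMKII, 5 fell and 0 rose, with a median log2 change of -0.91, and 4 kept the call without each library in turn. Kalrn, a guanine nucleotide exchange factor of dendritic spines, fell most, at 3.57 and 3.40 FPKM in the DCKO libraries against 15.3 and 15.9 FPKM in the control libraries (-1.89 ± 0.08, SE; limma adjusted p = 0.000803). Dlg4, the scaffold PSD-95, fell by 1.10 on the log2 scale (limma adjusted p = 0.00168), and Gria1, an AMPA receptor subunit, by 0.87 (0.00289). Syn1, the presynaptic synapsin I, had a log2 change of -0.19 (limma adjusted p = 0.253).

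Calcineurin is the phosphatase that calmodulin activates, and NFAT factors are its targets. Of 12 genes of this list in the fit, 4 fell and 2 rose, with a median log2 change of -0.14. The catalytic subunit genes Ppp3cc (-1.21 ± 0.07; limma adjusted p = 0.00173) and Ppp3ca (-0.83 ± 0.06; limma adjusted p = 0.00248) fell. Ppp3ca was at 45.7 and 46.8 FPKM in the DCKO libraries, against 83.6 and 82.7 FPKM in the control libraries. Ppp3cb (-0.39; limma adjusted p = 0.0165) and the regulatory subunit gene Ppp3r1 (-0.34; limma adjusted p = 0.0211) also fell, but neither passed without control 1 (0.0664 and 0.0942) or control 2 (0.0909 and 0.138). Nfatc4 rose by 0.61 (limma adjusted p = 0.0424), a call lost whichever of the 4 libraries was left out. It was also lost with no filter on low values (limma adjusted p = 0.0745) and with the replicate number as a block (0.0809).

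Of 14 other calmodulin-dependent enzymes in the fit, 6 fell and 2 rose, with a median log2 change of -0.32; 2 of the lower and 1 of the higher calls held without each library in turn. Nos1, the neuronal nitric oxide synthase, had the largest change of all pathway genes, at 1.64 and 1.70 FPKM in the DCKO libraries against 11.8 and 11.3 FPKM in the control libraries (-2.23 ± 0.09, SE; limma adjusted p = 0.000745). The death-associated kinase gene Dapk1 fell (-0.95 ± 0.13; limma adjusted p = 0.00999). The inositol trisphosphate kinase genes moved apart. Itpkb rose, at 10.7 and 11.4 FPKM in the DCKO libraries against 5.40 and 5.48 FPKM in the control libraries (0.91 ± 0.08, SE; limma adjusted p = 0.00366). Itpka fell by 0.80 on the log2 scale (limma adjusted p = 0.0320). Its call was lost without control 2 (log2 change -0.59), DCKO 1 (-0.79) or DCKO 2 (-0.8), and with no filter on low values (limma adjusted p = 0.0642). The phosphodiesterase gene Pde1b fell by 0.55 on the log2 scale (limma adjusted p = 0.0164), a call lost without control 2 (0.0612) or DCKO 2 (0.0504).

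Of 13 nuclear targets of CaM kinases, 7 fell and 0 rose, with a median log2 change of -0.37, and 2 kept the call without each library in turn. Those 2 were Hdac4, a class IIa histone deacetylase that leaves the nucleus when CaM kinases phosphorylate it (-1.19 ± 0.12; limma adjusted p = 0.00545), and Mef2c, a transcription factor that class IIa deacetylases repress (-0.68 ± 0.06; limma adjusted p = 0.00462). Mef2d fell by 0.57 on the log2 scale (limma adjusted p = 0.0325). Its call was lost without control 1 (log2 change -0.6) or control 2 (-0.54), and with no filter on low values (limma adjusted p = 0.0676). Hdac5 fell by 0.44 (limma adjusted p = 0.0110), a call lost without control 1 (log2 change -0.42) or control 2 (-0.45). Creb1, the CaMKIV substrate CREB, had 6.56 and 7.46 FPKM in the DCKO libraries, against 8.42 and 8.15 FPKM in the control libraries, and did not pass (-0.22 ± 0.09; limma adjusted p = 0.139).

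**Figure D3:**
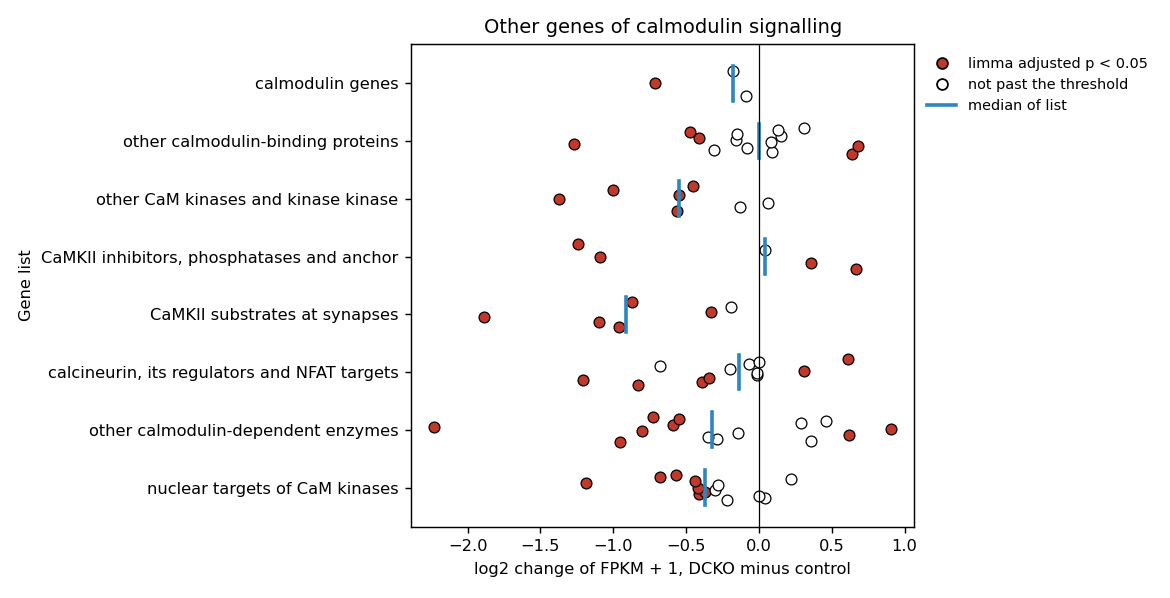
Change of each calmodulin pathway gene, as log2(FPKM + 1) in DCKO minus control, with 1 row per list; filled points passed a limma adjusted p of 0.05, open points did not, and blue bars are list medians. The synaptic substrates of CaMKII lie furthest left, with a median of -0.91, and the inhibitors Camk2n1 and Camk2n2 lie right of 0.

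Markers of bulb cell types were read beside the 9 genes, from lists also chosen with earlier results of these data known. All 6 granule cell markers fell, with a summed level of 62.4 and 89.4 FPKM in the DCKO libraries against 532 and 560.2 FPKM in the control libraries. Gng4 and Synpr had the highest means of this list over the 4 libraries. All 3 GABAergic markers fell, with a sum of 41.5 and 65.5 FPKM in the DCKO libraries against 342 and 289 FPKM in the control libraries. Gad1, which makes GABA, and Slc32a1, which loads it into vesicles, had the highest means among them over the 4 libraries. These calls held without each library in turn. The granule and GABAergic sums were higher in DCKO 2 than in DCKO 1, although the granule marker Tpbg was lower (1.95 against 2.17 FPKM). Of the 9 genes, Camk2d, Camk4 and Camkk2 were higher in DCKO 2 than in DCKO 1. Nrgn, Pcp4l1, Pcp4, Camk2a, Camk2b and Camk2g were lower. This sets 1 library against 1, and the order was not tested.

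Of 5 dopaminergic periglomerular markers 3 fell, with a sum of 8.97 and 8.95 FPKM in the DCKO libraries against 83.1 and 95.5 FPKM in the control libraries. Most of the control sum was Th, at 1.91 and 2.72 FPKM in the DCKO libraries against 65.4 and 75.8 FPKM in the control libraries. Slc18a2 was higher in both DCKO libraries than in either control but did not pass (limma adjusted p = 0.102). All 8 mitral and tufted cell markers rose, also with each library left out in turn, with a sum of 1641 and 1459.9 FPKM in the DCKO libraries against 752 and 819 FPKM in the control libraries. Slc17a7 and Cdhr1 had the highest means of this list over the 4 libraries. All 6 astrocyte markers rose, 5 of them also with each library left out in turn, with a sum of 914 and 882 FPKM in the DCKO libraries against 464 and 451 FPKM in the control libraries. Of 6 microglia markers 4 rose, 1 of them also with each library left out in turn, with a sum of 101 and 108 FPKM in the DCKO libraries against 71.7 and 71.8 FPKM in the control libraries.

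Of 6 general neuron markers 2 fell, 1 of them also with each library left out in turn, with a sum of 1381 and 1314 FPKM in the DCKO libraries against 1529 and 1569.8 FPKM in the control libraries. The sum of the 9 genes in the DCKO libraries was thus further below control than the general neuron sum. Since the 9 genes were chosen on this comparison, nothing is read from that. The neuron markers were themselves unequal. The 2 that fell were Rbfox3, at 14.2% of its control mean in DCKO, and Eno2, at 70.3%. Of the 9 genes, Camk2g (79.7%) and Camkk2 (84.9%) kept more than Eno2. Of 6 cortical excitatory markers in the fit 3 rose, 0 of them also with each library left out in turn, with a sum of 45.5 and 45.9 FPKM in the DCKO libraries against 26.7 and 32.1 FPKM in the control libraries. Of 4 striatal markers in the fit 1 fell and 1, Ppp1r1b, rose. The list summed to 80.01 and 64.5 FPKM in the DCKO libraries, against 33.0 and 30.3 FPKM in the control libraries. Most of that sum was Ppp1r1b alone, at 66.8 and 52.8 FPKM in the DCKO libraries against 18.6 and 17.3 FPKM in the control libraries. The sum is thus no measure of striatal markers as a set. None of the 6 oligodendrocyte markers passed (998 and 549 FPKM summed in the DCKO libraries, against 572 and 776 FPKM in the control libraries). The 4 olfactory sensory neuron markers in the fit did not pass either (186 and 148 FPKM summed over the list in the DCKO libraries, against 271 and 99.0 FPKM in the control libraries). No marker was at 0 in any library. The part of cell type content in the levels of the 9 genes was not tested.

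**Figure D4:**
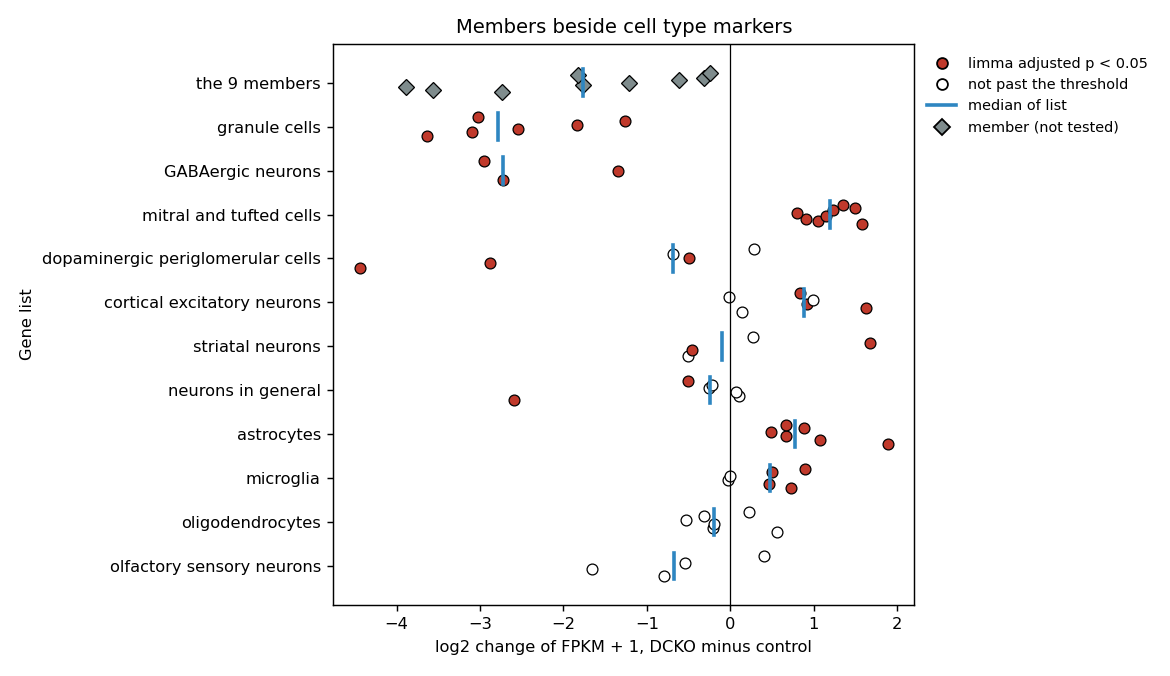
Change of the 9 genes (diamonds) and of cell type markers (circles, filled where a limma adjusted p was below 0.05), as log2(FPKM + 1) in DCKO minus control. Each list has 1 row, and blue bars are list medians. The 9 genes were in the fit but are marked as not tested, since no p-value is given for them. The median of the 9 genes (-1.77) lies between those of the granule cell (-2.78) and GABAergic (-2.72) markers and that of the general neuron markers (-0.24), while mitral and tufted cell and astrocyte markers lie right of 0.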

How the data were processed

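Total RNA of frozen olfactory bulbs was sequenced in 4 libraries, per the labels. The submitters' processing notes name GRCm38.p4, Cufflinks 2.1.1 and TopHat without a version; for the annotation and the strandedness the sources used here give nothing. FPKM values of 20032 genes were deposited by the authors, per the file headers, and are normalised to transcript length and library size. The deposited columns headed count were treated as a signal that the authors scaled by 1 factor per library, so no count model was used.

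The genotypes (DCKO minus control) were fitted with R 4.3.3 and limma 3.58.1, using log2(FPKM + 1) and a mean-variance trend, over the 13434 genes that averaged 1 FPKM or more, two-sided, and called at a Benjamini-Hochberg adjusted p below 0.05. An exact permutation test of 2 against 2 cannot go below 0.333 and was not used. The 9 genes, the lists and the tests were chosen with earlier results of these data known. Named by rule are the 9 genes, Sp8 and Sp9, and all measured genes of pathway lists of at most 5. From longer pathway lists come up to 4 called genes of largest change and the most abundant one. Marker lists give the 2 most abundant genes, and Pcp4, Nrgn, Camk4 and Camk2a their 3 nearest profiles outside the 9. Creb1, Omp, Cnga2, Tpbg and Slc18a2 were added after their values were seen. Some genes that the rule takes are not reported here. Coordinates are from GENCODE M21 and promoters from RefSeq (GRCm38.p6). Alternatives were the pseudocount, the filter, 2 other scalings, no variance trend, the replicate number as a block, leaving out single libraries and, added after seeing the data, the library-normalised scaled counts. The replicate numbers pair no libraries in the labels.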

Additional observations from a re-analysis of the deposited data

How the results depend on the processing

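The 9 genes kept their direction under every alternative run. Their median log2 change was -1.18 with a pseudocount of 5. The Camk2b share of the CaMKII sum was 0.307 points higher in DCKO on library-normalised scaled counts. Genes called lower in DCKO numbered 1030 without control 1, 1036 without control 2 and up to 1875 without a DCKO library, beside 1926 with all; genes called higher numbered 806 without control 2, 1159 without control 1 and up to 1384 without a DCKO library, beside 1747. Without 1 library, pathway genes called ranged from 19 to 29 lower and from 3 to 5 higher. Pathway genes called higher numbered 5 with no filter and 5 with the replicate block. With the replicate block, 1418 genes were lower, 1312 higher and 30 pathway genes lower, and Camk2g did not pass, as it did not without the intensity trend; replicate differences correlated at -0.0211 between genotypes, so the numbers were not taken as pairs. With 2 libraries per genotype, leaving out 1 leaves a lone library that is assumed to vary like the others. Depth is known only through scaled values, and Nrgn in DCKO and Camk4 rest on the fewest of these or the lowest levels.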
